A study of Schizosaccharomyces pombe with 8 samples.

Results

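Genes for the proteasome and for the enzymes that attach and remove ubiquitin were followed in fission yeast (Schizosaccharomyces pombe) treated with the histone deacetylase inhibitor trichostatin A (TSA). The set was chosen by name: every gene whose symbol is rpn, rpt, pre, pup, ubc or ubp followed by a digit. This gave 57 of 5129 protein-coding genes and of 9111 features in all, with 150 annotated coding segments between them. By prefix there were 14 rpn, 6 rpt, 8 pre, 3 pup, 11 ubc and 15 ubp genes.

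The proteasome is the protease that destroys proteins tagged with ubiquitin chains. Its barrel-shaped 20S core particle is built from alpha and beta subunits (pre and pup genes), and the 19S regulatory particle on top of it recognises, unfolds and feeds in the tagged protein through a ring of ATPases (rpt) and non-ATPase subunits (rpn). E2 enzymes (ubc) carry activated ubiquitin, or a relative of it, to substrates with the help of E3 ligases, and ubiquitin-specific proteases (ubp) take ubiquitin off again. In budding yeast the proteasome genes are switched on together by the transcription factor Rpn4 through a shared promoter element.

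Nascent RNA was measured by NET-seq, which sequences the RNA held by immunoprecipitated RNA polymerase II, here through flag-tagged Rpb3, the only modification the labels give for these otherwise wild-type cells. Exponentially growing cells were left untreated or given 20 µg/ml TSA for 2.5 h, and each condition had 2 biological replicates. Each culture gave a library of the immunoprecipitate (IP, nascent RNA) and a library of the input RNA of its lysate, 8 libraries in all. A lysate of Rpb3-flag budding yeast was mixed into every lysate as a spike-in, so the nascent libraries exist on a spike-in scale and on a total-read scale, and the inputs on the total-read scale alone.

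The libraries held 7218671 to 12591213 reads over the features. The median of the 57 genes was 434 to 730 reads in a nascent library and 100 to 181 in an input library, against 245 to 427 and 43 to 64 for all protein-coding genes, so values of the set rest on more reads than those of the median gene. Changes were tested with limma on log2 values across all features, with p-values adjusted over all of them, and a gene was called where the adjusted p was under 0.05 and the change 2-fold or more. On the spike-in scale the median protein-coding gene had a log2 change of -0.49 in TSA, on the total-read scale of -0.02 and in the input of -0.05, and the changes below are best read beside these medians. Values are from bulk cultures, in which fewer transcripts per cell and fewer transcribing cells cannot be told apart.

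Of the 57 genes, 55 had enough signal to be tested. The exceptions were rpn501 and rpn502, which both encode the lid subunit Rpn5. They held 1, 2, 1 and 1 reads (rpn501) and 3, 7, 3 and 1 reads (rpn502) in the untreated and TSA nascent libraries, and 1 read in all 4 inputs together. In the reference genome the copies lie in a stretch of 5652 bases that occurs at chrI:1266068-1271719 and, in the other orientation, at chrI:4905425-4911076 of ASM294v3 (RefSeq), with 8 differing bases and an unbroken identical run of 3211 bases. Their coding sequences of 1332 bases differ at 2 positions, and the 443-residue proteins are identical. Only uniquely mapped reads were kept by the authors. Windows of 50 bases, the length of the reads, were taken over the genes as RefSeq annotates them. In rpn501 and rpn502, 6.84% and 6.85% of them occur at 1 place in the genome. For each of the other 55 genes the share was 100%. The features counted begin further upstream, at chrI:1266194 for rpn501 and at chrI:4911100 for rpn502, the latter outside the shared stretch. The share over the features counted was not computed.

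The coding differences are shown because they are among the few places where a read could match 1 copy exactly. The windows above were compared by exact match, while the mapping allowed a single mismatch. Whether reads over these bases counted as unique was not tested. In the lines below the base in capitals is the one that differs between the copies, and the rest is common to both.
rpn501 (ASM294v3, chrI:1267273-1267313, plus strand): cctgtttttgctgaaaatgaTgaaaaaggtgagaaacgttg
rpn502 (ASM294v3, chrI:4909831-4909871, minus strand): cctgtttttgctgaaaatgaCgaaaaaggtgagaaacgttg
rpn501 (ASM294v3, chrI:1267426-1267466, plus strand): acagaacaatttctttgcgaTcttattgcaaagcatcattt
rpn502 (ASM294v3, chrI:4909678-4909718, minus strand): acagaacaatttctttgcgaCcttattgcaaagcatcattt

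The low values of rpn501 and rpn502 therefore give no level for Rpn5 transcription, and no change was computed for either.

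In untreated cells the genes of the proteasome stood at a high and narrow range of levels. Per kb of gene length on the total-read scale, the 29 measured proteasome genes had a median nascent level of 338 normalised reads (percentile 81.6 of protein-coding genes), and 27 of 29 were above the median gene, which had 130.0. In the input their median was 73.5 reads per kb (percentile 84.5), and 29 of 29 were above the median gene at 20.2. The rpt ATPase genes lay close together: their nascent levels ran from 278 (rpt5) to 413 (rpt6) reads per kb, and their SD on the log2 scale was 0.22, against 1.62 over all protein-coding genes. Among the rpn genes the range was wider, from 95.1 for rpn1302 to 526 for rpn11. The former, with rpn1301, encodes the ubiquitin receptor Rpn13, and rpn11 encodes the deubiquitinase of the lid. Over coding parts alone rpn11 had 363 nascent reads per kb, below rpn15 at 568, so its place at the top holds for the whole annotated gene only. The 8 pre genes ran from 223 for pre9 to 646 for pre1, and the 3 pup genes from 392 for pup1 to 500 for pup2.

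The E2 genes were spread far more widely, and the protease genes somewhat more. The median ubc gene had 154 nascent reads per kb and the median ubp gene 129, at percentiles 57.1 and 49.7. Their log2 SDs were 1.33 and 0.84, against 0.60 for the proteasome genes and 0.79 for rpn alone. The highest level of the whole set belonged to ubc4, the general-purpose E2 for short-lived proteins, with 1810 reads per kb in nascent RNA and 433 in the input. Its nascent value differed between the untreated replicates, at 1441 and 2488 normalised reads on the total-read scale. At the other end ubp10 had 37.2 nascent reads per kb, and ubc1, whose annotated feature is long and overlaps non-coding units on its strand, had 37.3. Because the lengths are those of the annotated transcripts, a long untranslated part lowers a level of this kind.

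**Figure D1:**
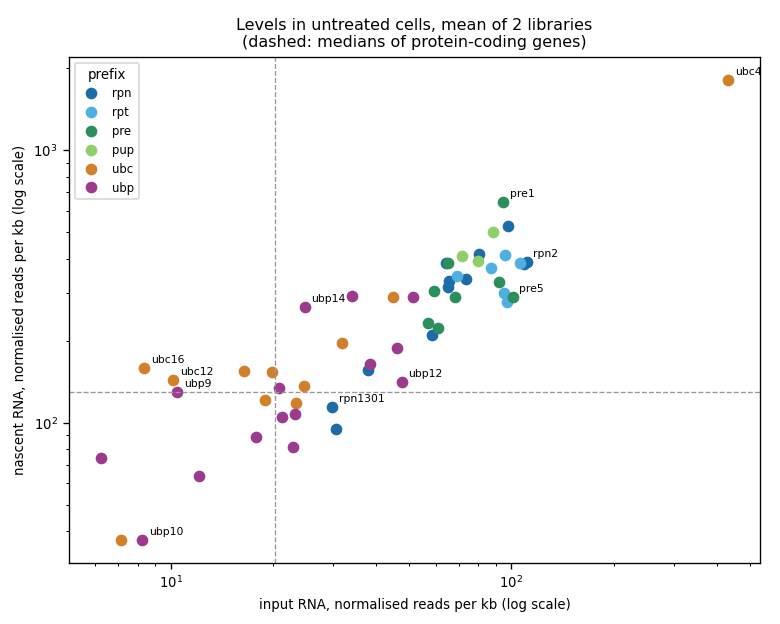
Nascent level against input level of the 55 measured genes in untreated cells, both in normalised reads per kb on the total-read scale and on log axes, coloured by prefix. The 29 proteasome genes cluster above both dashed medians of protein-coding genes except for rpn1301 and rpn1302 in nascent RNA, and ubc4 lies alone at 1810 nascent and 433 input reads per kb.

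The median ratio of nascent to input RNA differed between the groups, as a description, but their ranges overlapped. On the log2 scale they ran from 1.50 to 2.76 for proteasome genes, 2.02 to 4.24 for ubc and 1.56 to 3.63 for ubp. The median log2 ratio in untreated cells was 2.08 for proteasome genes, 2.67 for ubc genes and 2.31 for ubp genes, against 2.56 for protein-coding genes. Lowest were pre5, an alpha subunit gene, at 1.50 and rpt5 at 1.51, and highest was ubc16 at 4.24. Libraries were each scaled to their own total reads, so a ratio of 0 is no neutral point and only differences between genes are informative.

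Most reads of the set lay in coding sequence. The median gene had 73.0% to 76.3% of its nascent reads and 79.5% to 82.2% of its input reads in coding segments, which make up 60.4% of the length of the median gene. The gap was wide for rpn6, a lid scaffold subunit, whose coding part is 40.2% of the annotated length but held 70.7% to 76.3% of its nascent and 94.4% to 97.6% of its input reads.

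In nascent RNA on the spike-in scale 0 of the 55 genes were called as higher in TSA and 1 as lower, ubp12. Over all 8052 features tested, 2.1% were called as higher and 6.31% as lower. The median log2 change of the set was -0.38, between -0.42 for all features and 0 and above -0.49 for protein-coding genes. The replicate SD of the set's median was 0.22, which is wider than these gaps between medians. Proteasome genes had a median of -0.28, with -0.27 for rpn, -0.28 for rpt, -0.27 for pre and -0.85 for pup, while ubc genes stood at -0.46 and ubp genes at -0.53. With the adjusted p alone, 5 genes fell (9.09%), against a background of 13.6%, and 0 rose. So few genes do not set the group apart from the background, and their count varied with the processing, as given at the end.

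Summed over the genes of a group on the spike-in scale, nascent RNA was lower in both TSA libraries. The proteasome genes together had 18370 and 14310 spike-in normalised reads in the untreated libraries and 12800 and 12690 in TSA. The ubp genes had 7964 and 6250 against 4618 and 5035, and the ubc genes 4625 and 4250 against 3144 and 3266. For all 3 sums both untreated libraries lay above both TSA libraries. Taken gene by gene, this held for 41 of the 55 genes, against 4674 of 8052 features and 3566 of 5014 protein-coding genes. On the total-read scale the proteasome sums were 13640 and 17220 untreated and 18080 and 15700 in TSA, and the groups overlapped.

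The gene with the clearest fall was ubp12 (SPCC1494.05c). It encodes a ubiquitin-specific protease that in fission yeast associates with the COP9 signalosome and keeps subunits of cullin ubiquitin ligases from being ubiquitinated. Its nascent values were 587 and 492 spike-in normalised reads in untreated cells and 240 and 247 in TSA. Both TSA libraries were thus at less than the lower untreated value, and the replicates of each group lay close together. The log2 change was -1.13 ± 0.29 (SE), 2.18-fold lower, with an adjusted p of 0.0040 (limma, n = 2 a group). On the total-read scale its change was -0.65 ± 0.26 with an adjusted p of 0.099. The input moved the same way, with 157 and 191 normalised reads in untreated cells and 79.5 and 71.7 in TSA, a log2 change of -1.18 ± 0.16 (2.27-fold, adjusted p = 1.33e-04). The call in the input was kept without each of the libraries in turn, but that in nascent RNA was lost without either TSA library (adjusted p = 0.715 and 0.379), with the change still at -1.11 and -1.15, and without untreated replicate 1, where the change fell just under 2-fold with an adjusted p of 0.0035.

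For the other 4 genes that fell in nascent RNA by the adjusted p alone the change was under 2-fold. One of them, ubc13, encodes the E2 that builds lysine-63-linked ubiquitin chains with Mms2, and it had 321 and 264 spike-in normalised reads in untreated cells and 140 and 149 in TSA. The groups did not overlap, as for most genes on this scale, and the log2 change was -0.98 ± 0.31 (adjusted p = 0.017). In the input ubc13 had 44.1, 42.0, 44.2 and 44.9 normalised reads, with a log2 change of 0.05 ± 0.20, and on that total-read scale its nascent change was -0.51 ± 0.25 (adjusted p = 0.22). The change of its nascent over its input value was -0.56 ± 0.27 and did not pass the test (adjusted p = 0.56).

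The genes pup2 and pup3 encode an alpha and a beta subunit of the core particle. The nascent values of pup2 were 883 and 429 in untreated cells against 325 and 351 in TSA, with a log2 change of -0.86 ± 0.29 (adjusted p = 0.031). The high value was that of 1 library, so that the change was -0.34 without untreated replicate 1 and -1.37 without untreated replicate 2. For pup3 the values were 627 and 464 against 300.3 and 291, with a log2 change of -0.85 ± 0.29 (adjusted p = 0.032). On the total-read scale both had a nascent change of -0.38 and did not pass, and their input changes were 0.00 ± 0.18 for pup2 and 0.19 ± 0.16 for pup3. The third pup gene, pup1, which encodes the beta subunit with trypsin-like activity, had 679 and 602 nascent reads untreated and 529 in each TSA library (log2 change -0.27 ± 0.29, adjusted p = 0.51). The fifth gene was ubp1, with 361 and 236 untreated against 160 and 155 (log2 change -0.87 ± 0.30, adjusted p = 0.035), and its input change was -0.15 ± 0.19. Both pup3 and ubp1 were chosen for naming after their values were seen, because they passed the adjusted p. The 4 genes no longer passed without TSA replicate 1 (adjusted p = 0.81) or TSA replicate 2 (adjusted p = 0.44 to 0.51), and without untreated replicate 1 ubc13 alone did (adjusted p = 0.028).

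At the upper end of the nascent changes stood ubp4, ubc11 and rpt3. Fission yeast Ubp4 is an endosomal ubiquitin protease, ubc11 encodes an E2 that works with the anaphase-promoting complex on mitotic cyclins, and rpt3 encodes an ATPase of the 19S ring. On the spike-in scale ubp4 had 252 and 209 reads untreated and 266 and 277 in TSA, a log2 change of 0.24 ± 0.30 (adjusted p = 0.58), the highest of the 55. For ubc11 the change was 0.09 ± 0.31 and for rpt3 0.01 ± 0.29. The other 52 were below 0. At the lower end of their own prefixes were rpt4 at -0.72 ± 0.29, pre8 at -0.61 ± 0.29, and rpn15 (the small subunit Dss1) at -0.58 ± 0.30. Among the pre and rpn genes the highest values were -0.08 for pre9 and -0.05 for rpn3. None of these 5 genes passed the test. Without untreated replicate 2, rpt4 (-0.99, adjusted p = 8.03e-04), pre8 (-0.85, adjusted p = 0.0042) and rpn15 (-0.63, adjusted p = 0.047) did.

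On the total-read scale, which removes a shift common to all genes, 0 of the 55 were called. The background was 4.45% of 8062 features called as higher and 0.843% as lower. The median of the set was 0.10, against 0.03 for all features, with 0.20 for proteasome genes and -0.05 for ubp genes. The replicate SD of the set's median was 0.26 on this scale. On this scale both TSA libraries lay above both untreated libraries for 11 of the 55 genes (20%), against 24.8% of all features and 18.4% of protein-coding genes. Here ubp4 stood at 187 and 251 normalised reads untreated and 376 and 343 in TSA, with no overlap. Its log2 change of 0.71 ± 0.26 had an adjusted p of 0.055. Measured over coding parts alone, which leaves out untranslated ends and most overlaps with neighbours, it passed the test at 0.71 (adjusted p = 0.0027). By the same measure ubc11 rose by 0.48 (adjusted p = 0.047), and ubp12 fell by 0.66 (adjusted p = 0.015). These 2 rises and 1 fall among 55 genes compare with 4.34% and 3.91% of the coding parts of 4583 genes. On the spike-in scale the coding parts gave 1 called fall, ubp12 again at -1.10 (adjusted p = 0.010), and the background was 2.96% of 4601 genes.

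**Figure D2:**
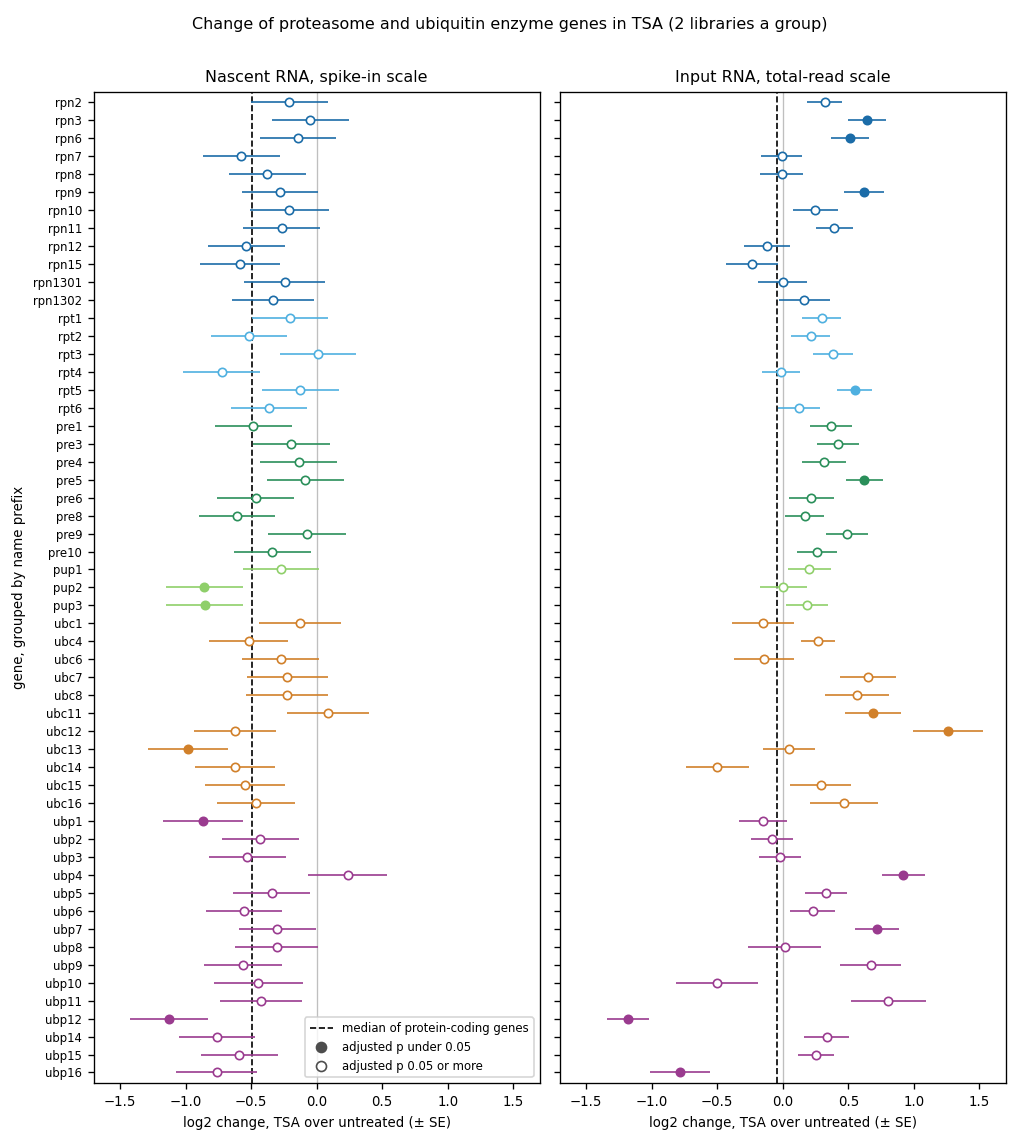
Log2 change in TSA of the 55 tested genes, with its SE, in nascent RNA on the spike-in scale (left) and in input RNA on the total-read scale (right), in order of prefix. Filled points passed an adjusted p of 0.05, and the dashed line is the median of protein-coding genes: in nascent RNA most genes lie left of 0 near that median, while in the input 40 of 55 lie right of 0.

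In the input, which holds the RNA of the whole lysate, values exist on the total-read scale alone, on which the nascent median of the set was 0.10. The median log2 change in the input was 0.26, against 0.00 for all features and -0.05 for protein-coding genes. The replicate SD of the set's median was 0.13. Of the 55 genes 40 were above 0, but they share the same libraries and are not independent measurements. All prefixes had a positive median: 0.21 for rpn, 0.26 for rpt, 0.34 for pre, 0.19 for pup, 0.29 for ubc and 0.23 for ubp. By the call rule 1 gene rose, ubc12, and 1 fell, ubp12, where 4.53% of 7245 features rose and 1.56% fell. With the adjusted p alone 9 genes rose and 2 fell, 16.4% and 3.64% of the set. The background was 8.01% and 5.38% of all features, and 8.66% of protein-coding genes rose. Both TSA libraries lay above both untreated libraries for 32 of 55 genes (58.2%), against 28.7% of all features and 27.8% of protein-coding genes. These backgrounds are not matched for read depth, and the set has more input reads than the median gene. Whether depth accounts for the higher shares was not tested.

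Summed over the genes, the input of the proteasome group was 3366 and 3808 normalised reads in untreated cells and 4526 and 4255 in TSA. The groups did not overlap. The 20S genes moved from 1105 and 1273 to 1512 and 1426 and the 19S genes from 2262 and 2535 to 3014 and 2829. The ubc genes moved from 788 and 749 to 934 and 931, and the ubp genes from 1188 and 1281 to 1354 and 1298, which is a narrower gap than in the other groups. Input libraries have no spike-in, and their total includes RNA of all kinds, so these are changes of share in the lysate RNA.

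Of the 9 rises 5 were proteasome genes, of both the regulatory and the core particle. Among the lid genes rpn3, which encodes a scaffold subunit, had 115 and 112 normalised input reads in untreated cells and 184 and 172 in TSA. The replicates differed little beside the gap between groups, and the log2 change was 0.64 ± 0.15 (1.56-fold, adjusted p = 0.0078). In nascent RNA rpn3 had 624 and 566 reads untreated and 568 and 581 in TSA on the spike-in scale, a log2 change of -0.05 ± 0.29. On the total-read scale, that of the input, its nascent values were 463 and 681 untreated and 803 and 719 in TSA, with no overlap and a log2 change of 0.43 ± 0.27 (adjusted p = 0.39). The change of its nascent over its input value, -0.21 ± 0.28, did not pass the test (adjusted p = 0.83). The scaffold genes rpn6 and rpn9, named here after their values were seen, rose by 0.52 ± 0.15 (adjusted p = 0.027) and 0.62 ± 0.15 (adjusted p = 0.012).

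The ATPase gene rpt5 had the highest input change of its group. Its values were 194 and 211 untreated and 298 and 295 in TSA, a log2 change of 0.55 ± 0.13 (1.46-fold, adjusted p = 0.012). Of the core particle, pre5 had 130.0 and 141 untreated and 204 and 214 in TSA, a change of 0.62 ± 0.14 (1.54-fold, adjusted p = 0.0083). The groups did not overlap for either gene. Their spike-in scaled nascent changes were -0.12 ± 0.29 (rpt5) and -0.09 ± 0.29 (pre5). By total reads, the scale of the input, they were 0.36 ± 0.27 and 0.39 ± 0.26, and none of these passed the test. The change of nascent over input was -0.19 for rpt5 (adjusted p = 0.83) and -0.23 for pre5 (adjusted p = 0.80). Proteasome genes at the low end of the input changes were rpn15, with 47.7 and 56.6 untreated and 46.5 and 41.5 in TSA (-0.24 ± 0.20, adjusted p = 0.46), and rpt4, with 142, 142, 143 and 138 (-0.02 ± 0.14). Of the 29 measured, 5 rose by the adjusted p, 24 did not pass, and 0 fell by it. With 2 libraries a group, not passing does not show that a gene stayed level. The change was above 0 for 23 of the 29 and below 0 for 6. Both TSA libraries lay above both untreated libraries for 17 genes and below them for 1. The 5 genes no longer passed without either TSA input library (adjusted p = 0.063 to 0.22), where the lone library is assumed to vary like the other group, or with DESeq2 (adjusted p = 0.11 to 0.28).

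Among the enzymes, ubp4 had the clearest rise. Its input was 56.3 and 66.6 normalised reads in untreated cells and 115 and 119 in TSA. The log2 change was 0.92 ± 0.17 (1.89-fold, adjusted p = 0.0018), a little under the 2-fold line, and the adjusted p held without each library in turn and with DESeq2. It thus had the highest nascent change of the 55 genes and the second-highest in the input. The cyclin E2 gene ubc11 had 35.4 and 27.4 against 52.4 and 49.3 (0.69 ± 0.21, adjusted p = 0.043), and did not pass without either TSA input library or untreated replicate 2 (adjusted p = 0.14 to 0.22). The protease gene ubp7, named after its values were seen, rose by 0.72 ± 0.17 (adjusted p = 0.0096), and did not pass without TSA replicate 2 (0.55, adjusted p = 0.21).

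The largest input change was that of ubc12, which encodes the E2 for the ubiquitin-like protein Nedd8 that activates cullin ligases. It had 13.7 and 11.9 normalised input reads untreated and 30.0 and 34.6 in TSA. The log2 change was 1.26 ± 0.27 (2.40-fold, adjusted p = 0.0050), but the values rest on 19, 13, 51 and 40 reads, and the gene shares 67 nt with arg1 on its strand. Over the coding part the change was 0.98 (adjusted p = 0.0024), and with DESeq2 over the gene the adjusted p was 0.13. In nascent RNA ubc12 had 228 and 160.0 reads untreated and 121 and 123 in TSA on the spike-in scale (-0.62 ± 0.31, adjusted p = 0.14), and its change on the total-read scale was -0.15 ± 0.25. The log2 ratio of nascent to input was 3.62 and 4.02 in untreated cultures and 2.51 and 2.14 in TSA, and this difference of -1.41 ± 0.31 did not pass the test (adjusted p = 0.40).

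Falls in the input were seen for ubp12 and ubp16. The second of these, named after its values were seen, had 44.8 and 53.8 normalised reads untreated and 33.6 and 23.3 in TSA (-0.78 ± 0.23, adjusted p = 0.034). It was below 2-fold, and it did not pass without TSA replicate 2 (-0.53, adjusted p = 0.32) or without untreated replicate 2 (-0.66, adjusted p = 0.13). A pair of enzyme genes at the lower end, ubp10 (-0.50 ± 0.31) and ubc14 (-0.50 ± 0.24), did not pass it. The former rests on 12 to 21 input reads a library, and the latter shares 363 nt with sfc7. The values of ubc4, the most transcribed gene of the set, were 510 and 429 in untreated input and 575 and 552 in TSA (0.27 ± 0.13, adjusted p = 0.19), and 1940 and 2068 against 1375 and 1415 in nascent RNA (-0.52 ± 0.30, adjusted p = 0.20).

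**Figure D3:**
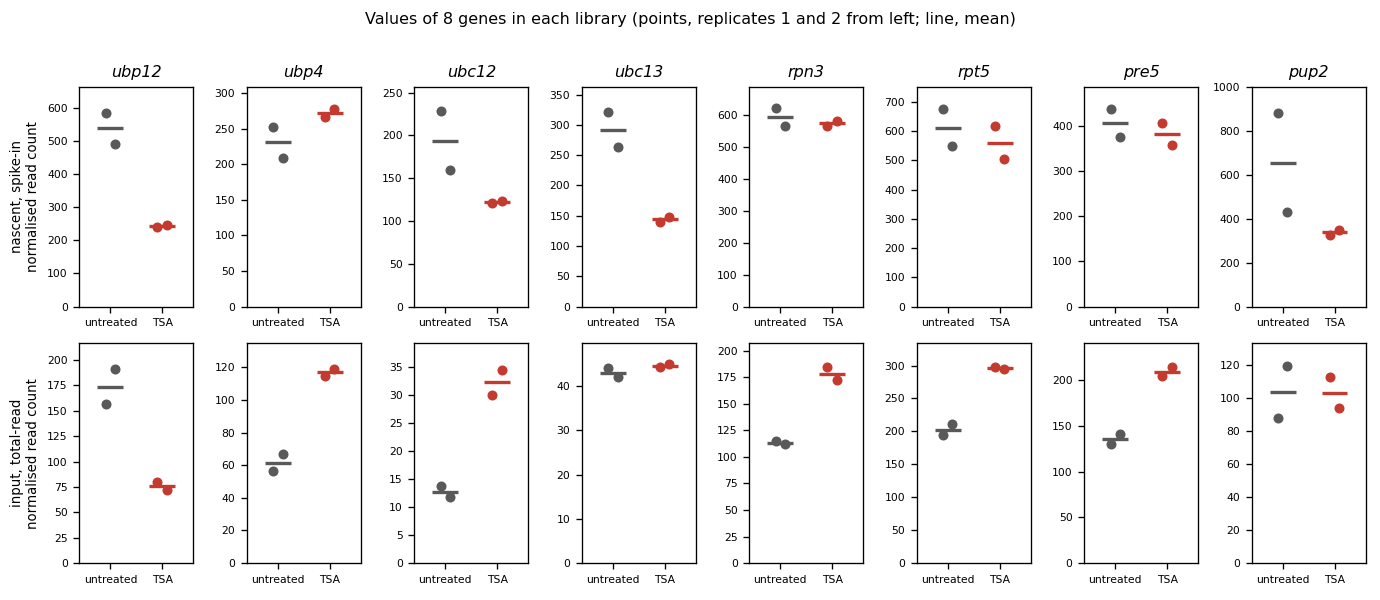
Values of 8 genes in each library, nascent RNA on the spike-in scale above and input RNA on the total-read scale below, in normalised reads, with untreated and TSA replicates as points and their mean as a line. For ubp12 both rows fall (587 and 492 to 240 and 247, 157 and 191 to 79.5 and 71.7), for rpn3, rpt5 and pre5 the input rises and spike-in nascent values overlap (on the total-read scale, not plotted, their nascent changes were 0.43, 0.36 and 0.39), and for pup2 most of the nascent difference comes from untreated replicate 1.

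Whether nascent and input RNA changed by different amounts was tested for each gene on the ratio per culture. None of the 55 passed (3 had an unadjusted p under 0.05), and neither did any of 7183 features, a background of 0%, although 692 had an unadjusted p under 0.05. The median difference of the set was -0.18, against 0.03 for all features, and by prefix it ran from -0.04 (rpn) to -0.38 (pup). In coding parts the input gave 13 rises and 2 falls by the adjusted p among 55 genes, with a median of 0.25. The background, likewise not matched for depth, was 8.79% of 4519 genes that rose.

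The promoters of ubp4 and ubp12 are shown, as those of the protease genes that moved most in each direction. All 57 genes were matched by identifier to the RefSeq annotation of ASM294v3. Each window runs from 250 bases before to 50 bases after the start annotated there. That start can differ from the start of the feature counted, by a few bases or by many. For rpn6 the starts were 887648 (RefSeq) and 885944 (feature counted), and for ubc6 1215948 and 1217067. The windows of these genes lie inside the feature counted, so the motif shares below describe RefSeq starts. Capitals mark matches on either strand to the motifs searched. The stress-responsive factor Pap1 binds sites for which TTACTAA was searched here. The TATA box, at which the general transcription machinery assembles, was searched as TATAAA on both strands.
ubp4 (ASM294v3, chrII:1786394-1786693, minus strand): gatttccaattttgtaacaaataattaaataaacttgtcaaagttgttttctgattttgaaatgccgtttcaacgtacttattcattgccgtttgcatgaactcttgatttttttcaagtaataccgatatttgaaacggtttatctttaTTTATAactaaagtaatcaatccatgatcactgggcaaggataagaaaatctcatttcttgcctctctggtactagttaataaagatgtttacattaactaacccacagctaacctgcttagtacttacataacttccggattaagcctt
ubp12 (ASM294v3, chrIII:2332422-2332721, minus strand): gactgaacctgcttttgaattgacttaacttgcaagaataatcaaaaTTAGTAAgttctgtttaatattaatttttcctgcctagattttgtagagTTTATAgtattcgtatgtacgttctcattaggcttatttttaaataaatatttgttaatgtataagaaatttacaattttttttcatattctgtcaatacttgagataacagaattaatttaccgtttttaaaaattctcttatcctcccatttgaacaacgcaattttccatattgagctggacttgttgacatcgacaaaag

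The ubp12 window holds a match to the Pap1 motif and to the TATA box, and that of ubp4 to the TATA box. Both TATA matches read TATAAA on the opposite strand. The start of the counted ubp4 feature, chrII:1786542, lies within its match, so this match is upstream of the RefSeq start only. Over the set the TATA box was in 39 of 57 windows (68.4%) and in 23 of 31 proteasome windows (74.2%), against 48.1% of the windows of 5106 protein-coding genes. The Pap1 motif was in 9 of 57 (15.8%, against 12.0%), and the MluI box of genes expressed at the start of the cell cycle, ACGCGT, in 3 of 57 (5.26%, against 3.25%). The Rpn4 element of budding yeast, GGTGGCAAA, was in 0 of 57 windows and in 0.0979% of all windows, and its first letters, GGTGGC, which any match to the whole element also holds, were in those of rpt1 and rpt2 (3.51%, against 3.35%). The HomolD box CAGTCACA, common in ribosomal protein genes, was in that of pre10 alone (1.75%, against 2.68%), and the Atf1 site TGACGT in 3 (5.26%, against 5.91%). These are letter matches in a fixed window and describe neither binding nor its absence.

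Of 84 other genes, put in lists of the pathway by symbol, 1 was called as higher and 2 as lower in nascent RNA on the spike-in scale (1.19% and 2.38%, against 2.1% and 6.31% of all features). In the input 2 were called as higher (2.38%, against 4.53%). By the adjusted p alone 12 fell in nascent RNA (14.3%, against 13.6%), and in the input 8 rose and 2 fell (9.52% and 2.38%, against 8.01% and 5.38%). Of 10 further genes found by symbols of proteasome subunit, assembly and anchor genes, 0 were called in nascent or input RNA. Their median input change was 0.21, near that of the set. By the adjusted p alone ump1, which encodes a core assembly chaperone, had lower nascent RNA (log2 change -0.79). So did pus1 (-0.87), which was listed by its symbol alone and is not shown to be a proteasome gene. Without untreated replicate 1 the changes were -0.65 (ump1) and -0.71 (pus1), and without untreated replicate 2 they were -0.93 and -1.03. The core beta subunit gene pts1 rose in the input by 0.47 (adjusted p = 0.049). Its change was 0.35 without untreated replicate 1 and 0.59 without untreated replicate 2. Among 14 ubiquitin, ubiquitin-like and activating enzyme genes, ubi3, a fusion of ubiquitin and a ribosomal protein, fell in nascent RNA by 1.22 on the log2 scale (adjusted p = 0.0013), but did not pass without either TSA library (adjusted p = 0.53 and 0.36). The gene fub2 rose from 14.0 and 8.21 to 40.9 and 109 spike-in normalised reads (log2 change 2.12, adjusted p = 2.77e-07), and without TSA replicate 2 it did not pass (1.48, adjusted p = 0.17). Its input also rose, by 2.21 (adjusted p = 0.016), at 0, 0.912, 4.71 and 7.78 normalised reads, and did not pass without either TSA input library (adjusted p = 0.063 and 0.20).

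Of 38 ubiquitin ligase genes, srw1, an activator of the anaphase-promoting complex, had 862 and 283 spike-in normalised reads untreated and 155 and 188 in TSA, a log2 change of -1.50 (adjusted p = 4.96e-05). Most of this rests on untreated replicate 1, without which the change was -0.71 (adjusted p = 0.070), while without untreated replicate 2 it was -2.30. It also did not pass without TSA replicate 1 or 2 (adjusted p = 0.46 and 0.12). The complex's subunit gene apc2 rose in the input by 1.19 (adjusted p = 0.025), and still passed when untreated replicate 2 was left out (1.64) but not when any other input library was (adjusted p = 0.072 to 0.12). None of 3 E2 genes with other names was called, and none of 9 genes listed as deubiquitinases with other names. The latter list also holds ulp1, ulp2, nep1 and nep2, which encode proteases for ubiquitin-like proteins. By the adjusted p 2 of the 9 fell in nascent RNA, uch1 (-0.96) and ulp1 (-0.88). Without untreated replicate 1 these changes were -0.68 and -0.60, and without untreated replicate 2 they were -1.24 and -1.15. The median input change of the 9 genes was 0.34. Of 10 Cdc48 and ubiquitin receptor genes 0 were called, and by the adjusted p the input of cdc48, the segregase that hands ubiquitinated proteins to the proteasome, rose by 0.51 (adjusted p = 0.022) and that of dph1 by 0.48 (adjusted p = 0.038). In the same list npl4, which encodes a cofactor of Cdc48, fell in the input by 0.57 (adjusted p = 0.044) and in nascent RNA by 0.94 (adjusted p = 0.018). None of these 4 changes passed without either TSA library. The median input change of that list was 0.23 and that of the ligases 0.15, against -0.05 for protein-coding genes.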

How the data were processed

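The 57 genes and the lists were chosen with earlier results of these data known. The authors trimmed reads with cutadapt, mapped them with Bowtie, allowing a single mismatch, and kept unique reads. The strand setting and annotation behind the tables are not given in the sources used here. The deposited columns hold reads per feature multiplied by a factor per library, a normalised signal, and in each table the library with factor 1 was deposited as raw read counts. Whole reads were recovered at a tolerance of 0.001. Tables of CDS segments were summed per gene for coding parts.

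log2(value + pseudocount) was tested with limma 3.58.1 (eBayes with trend). The plan named edgeR for unscaled counts, but most columns are scaled. The pseudocount was the 10th percentile of non-zero values (6.00, 6.58 and 1.18 for nascent spike-in, nascent total-read and input), and features with a mean above it were tested, with Benjamini-Hochberg adjustment over all. In nascent RNA limma shrank variances to the trend completely. Genes were named where called, at either end of a prefix in the nascent spike-in or input change, at either end of untreated nascent level, or where proteins were over 80% identical. edgeR 4.0.16 and DESeq2 1.42.0 on recovered reads, other pseudocounts, scalings and filters, a replicate block and leaving out each library were alternatives. Simulated data with planted changes were used to test the fit. Summed density columns were not used. With 2 libraries a group, p-values rest on 4 libraries.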

Additional observations from a re-analysis of the deposited data

How the results depend on the processing

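The single called gene in nascent RNA on the spike-in scale became 0 with median-ratio scaling or a replicate block, 2 with edgeR or DESeq2, and 0 to 5 without each library in turn. By the adjusted p alone the 5 falls became 2 genes (1 up, 1 down) with median-ratio scaling, 0 with the replicate block and 0 to 27 without each library. The 2 genes called in the input became 1 with DESeq2, 1 over coding parts and 11 by the adjusted p alone. Those 11 became 18 with median-ratio scaling, 2 with DESeq2 and 3 to 18 without each library. The called coding part on the spike-in scale became 0 with 4 times the pseudocount or the replicate block, 0 to 4 without each library and 4 by the adjusted p alone. The nascent median of -0.38 became 0.12 with median-ratio scaling, which centres most genes on 0, and there ubp4 passed the adjusted p at 0.73 (adjusted p = 0.019) and ubp12 at -0.63 (adjusted p = 0.031). The cause of the other differences was not tested. Among the named genes, 271 values under other settings stayed on their side of the threshold and, where they had not passed, moved by less than their SE, 50 lost it and 8 gained it with the direction kept, 12 others moved by more, and no call changed direction.

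Replicate numbers did not pair cultures: deviations of same-numbered libraries correlated at -0.21, -0.24 and 0.02 (spike-in, total-read and input). With the numbers crossed, 1 gene was called and 15 passed the adjusted p on the spike-in scale. The effect of low depth is greatest in the input, where genes such as ubc12 and ubp10 rest on few reads.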
